A study of Mus musculus with 45 samples.

Results

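A set of 10 genes that damp signalling from receptor tyrosine kinases to the MAP kinases was followed in the mouse fibroblast line NIH-3T3, derived from embryos: the phosphatase genes Dusp1, Dusp4, Dusp5 and Dusp6, the Sprouty genes Spry1, Spry2 and Spry4, the Sprouty-related genes Spred1 and Spred2, and Errfi1. Members were taken by name. Every Affymetrix probe set whose annotation gave exactly 1 of these symbols was used, which gave 23 probe sets for the 10 genes, of 25031 probe sets for 13232 genes on the arrays. Each gene is described by its probe set with the highest mean over all 45 arrays, and the other probe sets of Spry2, Spry4, Spred1, Spred2 and Errfi1 are given after it.

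The cells were grown with 5% newborn calf serum and had reached about 80% density when fresh medium was added. Total RNA was taken after 1 h and 2 h of the transcription inhibitor actinomycin D (5 µg/ml) and from cells before the drug. In labelled cells the fresh medium carried 4-thiouridine (4sU), a nucleoside that marks RNA made after its addition. Newly transcribed RNA was measured after 15 min and 30 min at 500 µM and after 60 min at 200 µM, total RNA at 30 min and 60 min, and unlabelled pre-existing RNA at 60 min. A further 60 min experiment with newly transcribed and total RNA bears the label 2F. Neither 2F nor the word mock, found in sample titles other than those at 30 min and of the actinomycin D series, is explained by the labels. Each of the 11 groups had 3 arrays, except newly transcribed and total RNA at 30 min with 9 each. The labels do not say that replicates were separate cultures, so p-values measure a spread between arrays that may be technical.

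When a growth factor binds its receptor, Ras, Raf, MEK and the kinases ERK1 and ERK2 are switched on in turn, and stress switches on the related kinases p38 and JNK. Cells limit these signals with inhibitors whose genes are themselves switched on by the pathway, a negative feedback loop known from serum-stimulated fibroblasts. The dual-specificity phosphatases remove phosphate from active MAP kinases, Sprouty and Spred proteins hinder the step from receptor to Ras and Raf, and Errfi1 (also named Mig6) binds the EGF receptor kinase and blocks it.

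Promoter sequence bears on genes that are switched on together, so 250 bases upstream of the annotated start were read from RefSeq (GRCm38) for 8 members, Errfi1 with 2 promoters. Dusp4 and Spry4 were not matched. The 3 promoters shown are those of the members that held a whole CRE, the palindrome bound by CREB (TGACGTCA), or a CArG box, the element bound by serum response factor. Capitals mark these motifs and the shorter CRE core (TGACG, or CGTCA on the other strand), 2 copies of which overlap within each palindrome. The sequences run 5′ to 3′ on the gene's strand and end at the base before the start.
Dusp1, chr17:26508473-26508722, minus strand: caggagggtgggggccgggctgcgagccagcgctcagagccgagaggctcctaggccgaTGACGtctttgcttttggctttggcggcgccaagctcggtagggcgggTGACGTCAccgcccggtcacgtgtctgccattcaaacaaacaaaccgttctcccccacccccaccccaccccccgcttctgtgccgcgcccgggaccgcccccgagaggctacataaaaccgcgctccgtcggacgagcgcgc
Dusp5, chr19:53528895-53529144, plus strand: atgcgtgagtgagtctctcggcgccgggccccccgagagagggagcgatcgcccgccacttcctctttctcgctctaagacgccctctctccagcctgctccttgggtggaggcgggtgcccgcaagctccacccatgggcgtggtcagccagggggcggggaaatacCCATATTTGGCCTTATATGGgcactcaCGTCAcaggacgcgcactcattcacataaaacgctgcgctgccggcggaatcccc
Errfi1, chr4:150854820-150855069, plus strand: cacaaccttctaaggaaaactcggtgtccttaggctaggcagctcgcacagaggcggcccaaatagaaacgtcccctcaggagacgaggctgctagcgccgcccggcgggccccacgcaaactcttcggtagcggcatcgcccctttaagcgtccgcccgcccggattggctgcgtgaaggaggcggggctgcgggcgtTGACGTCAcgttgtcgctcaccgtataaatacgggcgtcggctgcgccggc
Positions are counted back from the start. The Dusp1 promoter held the palindrome at -143 to -136, and the second Errfi1 promoter at -51 to -44. Of 32851 RefSeq promoters of this length, 1.55% held it. Dusp5 held 2 adjoining CArG boxes at -82 to -73 and -72 to -63, an element present in 1.47% of promoters. The CRE core was found in Dusp1, Dusp5, Spred2 and Errfi1 and in 17.8% of all promoters. The AP-1 site (TGACTCA) was searched on both strands like the others and was in 0 of the 9 member promoters and in 4.46% of all. A match is a description of the letters in this window.

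The cells carried the markers of their label. All 10 fibroblast markers, among them Col1a1, Vim and Thy1, lay above an intensity of 32 in untreated cells, the level below which signals are called low here. None of 3 epithelial, 2 leukocyte and 3 endothelial or muscle markers measured reached it. Their summed intensities over all arrays spanned 44810 to 84600 for fibroblast markers, against 17.9 to 51.6, 13.2 to 35.1 and 14.8 to 18.2 for the other lists. The number of arrays per group limits the precision. The 9 arrays at 30 min fell into 3 sets of 3 by their numbers (1, 4 and 7, then 2, 5 and 8, then 3, 6 and 9): deviations from the group mean correlated at 0.492 to 0.794 within sets of newly transcribed RNA and 0.627 to 0.917 within sets of total RNA, and at most 0.472 and 0.0839 between sets. The labels do not mention these sets, so 9 arrays may stand for 3 independent samples. At 60 min, replicate 2 of total RNA had a 3′ over 5′ difference of 3.08 (log2) for the actin control probe sets and replicate 1 of newly transcribed RNA one of 3.07 for Gapdh. In the other 43 arrays these differences reached 1.54 and 0.896.

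Each change below is a log2 fold change with its standard error, from a limma fit to all probe sets whose mean log2 was at least 5. To be called, it needed a Benjamini-Hochberg adjusted p under 0.05, adjusted over the whole fit, and at least a 2-fold difference. GCRMA intensities are relative to the other RNA on the same array, and in bulk RNA fewer cells and less RNA per cell cannot be told apart.

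Actinomycin D shows which of these transcripts disappear when no new ones are made. Of 8 members tested, 7 fell within 1 h and the same number by 2 h, against 3.58% and 9.42% of all probe sets called lower. Their median log2 change was -1.78 at 1 h and -3.85 at 2 h, beside 0.09 and 0.10 for all probe sets tested. Below an intensity of 32 the size of a change depends on the floor of the array, so the smallest loss that the data allow is also given with intensities under 32 set to 32, a setting added after values were seen. The medians were then -1.63 and -2.96. Spred1 was the tested member that did not pass, and Dusp4 and Spry4 lay under the intensity filter. Dusp1, Dusp5 and Spry1 averaged under the low level at both drug times and passed the filter only through the untreated cells. Genes that pass in this way can enter the counts only as losses, so the counts do not weigh these members evenly.

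Dusp1, a nuclear phosphatase of p38, JNK and ERK, had intensities of 517, 620.0 and 637 before the drug, 28.6, 36.6 and 18.2 at 1 h, and 6.00, 5.56 and 4.23 at 2 h. No 2 times overlapped, and its values lay near or under the low level of 32 at 1 h. The log2 change of Dusp1 was -4.46 ± 0.24 at 1 h (adjusted p = 9.1e-06) and -6.82 ± 0.24 at 2 h (adjusted p = 1.1e-07). Dusp5, a nuclear phosphatase that acts on ERK alone, had 234, 258 and 245 before, 24.8, 24.3 and 23.8 at 1 h, and 6.81, 12.8 and 12.2 at 2 h. Dusp6, its cytoplasmic counterpart, had 439, 462 and 645 before, 73.4, 72.6 and 64.5 at 1 h, and 8.49, 20.6 and 18.8 at 2 h. Both dropped in every array at each step, with changes at 1 h and 2 h of -3.34 ± 0.21 and -4.59 ± 0.21 for Dusp5 and -2.86 ± 0.30 and -5.10 ± 0.30 for Dusp6 (adjusted p at most 3.0e-04). With intensities under 32 set to 32, the loss by 2 h was at least 18.4-fold for Dusp1, 7.68-fold for Dusp5 and 15.9-fold for Dusp6. Dusp4, a nuclear phosphatase close to Dusp1 in sequence, was dim throughout, with 20.2, 36.8 and 34.0 before, 21.3, 26.8 and 24.2 at 1 h, and 10.6, 8.96 and 10.2 at 2 h. Its values at 2 h were below all others, but they lie under the low level and were not tested.

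The Sprouty genes had smaller changes in the first hour than Dusp1, Dusp5 and Dusp6, a difference that was not tested. Spry1 had 118, 94.0 and 91.7 before, 42.2, 26.4 and 20.5 at 1 h, and 7.97, 13.0 and 15.4 at 2 h, a change of -1.82 ± 0.29 at 1 h and -3.11 ± 0.29 at 2 h. Spry2 had 232, 268 and 261 before, 59.1, 86.4 and 84.4 at 1 h, and 9.23, 15.4 and 13.0 at 2 h, a change of -1.74 ± 0.20 and -4.37 ± 0.20. The times did not overlap for either gene, and adjusted p was at most 0.0018. All 2 h values were under the low level, so the loss by then was at least 3.14-fold for Spry1 and 7.90-fold for Spry2. Spry4 had 32.9, 27.4 and 38.1 before, 11.1, 13.6 and 13.7 at 1 h, and 21.9, 13.6 and 13.7 at 2 h. All 6 drug-treated arrays were below the 3 untreated ones, at intensities too low to be tested.

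The Spred proteins bring the Ras inactivator neurofibromin to the membrane. Spred1 had 259, 319 and 353 before, 205, 281 and 301 at 1 h, and 156, 195 and 178 at 2 h, so the first 2 times overlapped and the third lay below both. Its log2 change was -0.25 ± 0.17 at 1 h (adjusted p = 0.28) and -0.81 ± 0.17 at 2 h (adjusted p = 0.0059), short of the 2-fold threshold. Spred2 had 322, 353 and 317 before, 215, 137 and 138 at 1 h, and 89.0, 129 and 129.6 at 2 h. Its change was -1.05 ± 0.20 at 1 h (adjusted p = 0.0043) and -1.53 ± 0.20 at 2 h, both called, and the 1 h call was lost on the fold threshold when untreated replicate 2 was left out (-0.999), or replicate 2 (-0.93) or 3 (-0.94) at 1 h. Both calls rest on this probe set: the second of Spred2 changed by -0.09 ± 0.29 at 1 h (adjusted p = 0.82) and -0.72 ± 0.29 at 2 h (adjusted p = 0.084). Errfi1 was the brightest member, with 1114, 1314 and 1249.8 before, 540.1, 484 and 462 at 1 h, and 115, 116 and 132 at 2 h. Its change was -1.31 ± 0.11 at 1 h (adjusted p = 1.4e-04) and -3.34 ± 0.11 at 2 h (adjusted p = 1.0e-07), with no overlap between times.

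**Figure D1:**
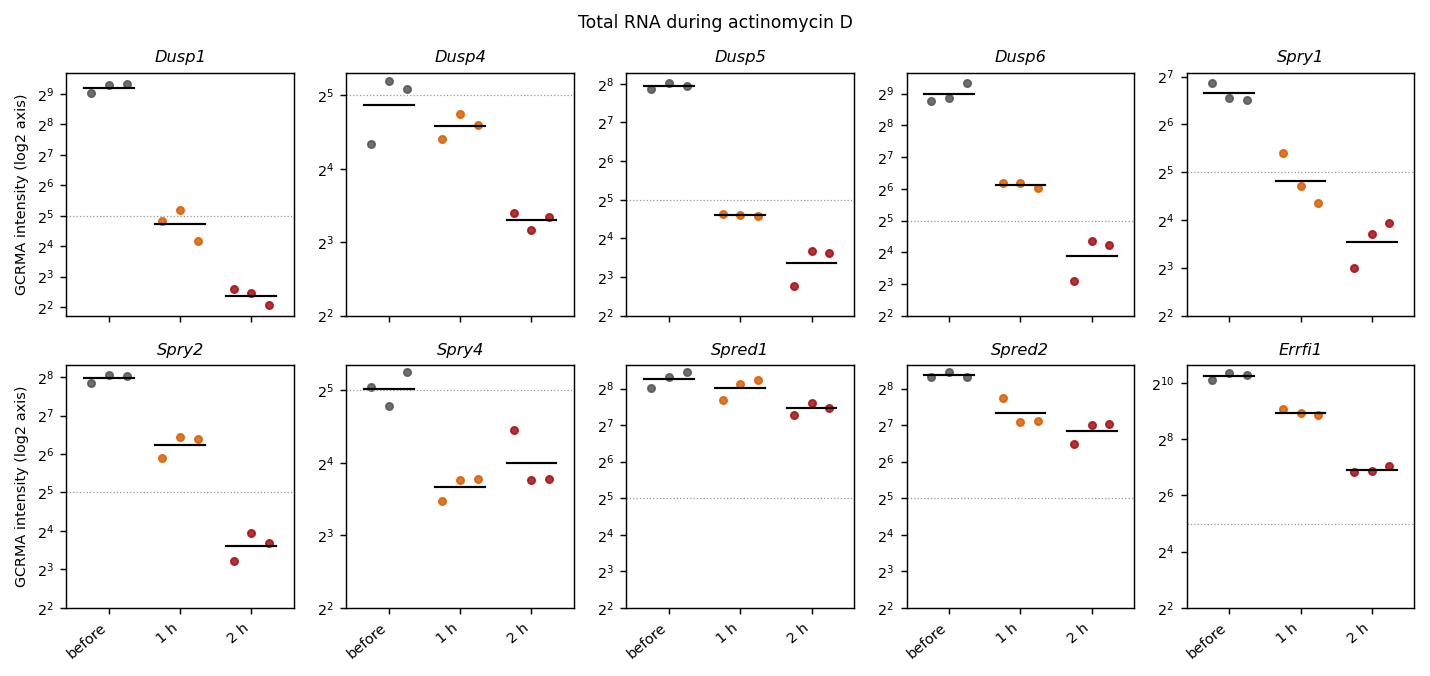
GCRMA intensity (log2 axis, its upper end set per panel) of each member in total RNA before actinomycin D and after 1 h and 2 h, 3 arrays per time. Points are arrays, bars are means of log2 values, and the dotted line is the low level of 32. Dusp1, Dusp5, Dusp6, Spry1 and Spry2 were under the line on every array at 2 h, whereas Spred1, Spred2 and Errfi1 stayed above it.

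The second hour was then set against the first. Of the 8 tested, 6 fell further from 1 h to 2 h, against 7.32% of all probe sets. Of these, Dusp1, Dusp5 and Spry1 averaged under the low level at both times and had passed the intensity filter through the untreated cells. With intensities under 32 set to 32, the count was 3, namely Dusp6, Spry2 and Errfi1. Errfi1, above the level throughout, changed by -2.03 ± 0.11 in the second hour after -1.31 ± 0.11 in the first, and whether the hours differed was not tested. Read as half-lives, the first-hour losses correspond to 21.0 min for Dusp6 (95% interval 17.0 to 27.4), 34.4 min for Spry2, 45.9 min for Errfi1 (38.5 to 57.0) and 57.3 min for Spred2. For Dusp1, Dusp5 and Spry1, whose means at 1 h were under the low level, they are at most 14.5 min, 20.4 min and 39.5 min. The interval of Errfi1 lies above the bounds of Dusp1 and Dusp5. The second hour gave 29.5 min for Errfi1 (26.2 to 33.8), and no values are given for the members that ended under the low level. These values assume that the drug stops transcription at once and leaves decay as it was.

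The wider pathway held smaller shares of genes that fell after the drug. Of 25 genes of the MAP kinase cascade tested, from receptors to kinases, limma called 0 at 1 h (10 had an unadjusted p under 0.05) and 2 fell by 2 h: Sos2, a Ras activator (-1.72 ± 0.19), and Egfr, the EGF receptor (-1.17 ± 0.24). Among 9 other dual-specificity phosphatases, 1 fell at 1 h (Dusp7, -1.03 ± 0.24) and 3 by 2 h, with Dusp16, a phosphatase of JNK and p38, at -2.78 ± 0.21 and Dusp14 at -1.46 ± 0.24. Of 12 other inhibitors of Ras and receptor signalling, 2 fell at 1 h and 5 by 2 h, led by the cytokine signalling inhibitor Socs3 (-4.55 ± 0.26), Spry3 (-2.30 ± 0.17) and Socs5 (-1.91 ± 0.13). Of 12 ERK target genes tested, 6 fell at 1 h and 7 by 2 h, with the transcription factors Myc at -5.38 ± 0.19 and Egr1 at -2.84 ± 0.16. The median log2 change at 2 h was -0.06 for the cascade, -0.05 for the other phosphatases, -0.67 for the other inhibitors and -1.86 for the ERK targets.

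Enrichment of a transcript in newly transcribed over total RNA shows how much of it was made during labelling, relative to other transcripts. At 30 min, 8 of the 10 members were higher in newly transcribed RNA, against 23.7% of probe sets. At 60 min 9 were, against 17.7%, and in the 2F experiment all 10, against 24%. Their median log2 enrichment was 2.22, 2.12 and 1.89, beside -0.14, -0.14 and 0.04 for all probe sets.

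Dusp5, Dusp6 and Dusp1 had the largest enrichments at 30 min. Dusp1 had 4854, 7338 and 12926 as lowest, median and highest of 9 arrays of newly transcribed RNA at 30 min, against 886, 1127 and 1491 in total RNA. Dusp5 had 4978, 6127 and 11849 in newly transcribed RNA, against 589, 811 and 1091 in total RNA. Dusp6 had 5781, 8000.5 and 10203 in newly transcribed RNA, against 719.7, 995 and 1083 in total RNA. In all 3 genes the lowest array of newly transcribed RNA was above the highest of total RNA, and the enrichment was 2.80 ± 0.16 for Dusp1, 3.02 ± 0.16 for Dusp5 and 3.02 ± 0.12 for Dusp6 (adjusted p at most 4.1e-12). Dusp4 had 90.5, 129.9 and 280.0 in newly transcribed RNA, against 15.5, 30.2 and 46.2 in total RNA, where 7 of 9 arrays were under the low level. It passed the intensity filter through newly transcribed RNA, and its fitted enrichment of 2.32 ± 0.24 was 2.07 with intensities under 32 set to 32, at least 4.21-fold.

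Of the Sprouty genes, Spry4 had 155, 216 and 314 in newly transcribed RNA at 30 min, against 23.9, 35.5 and 44.0 in total RNA, an enrichment of 2.75 ± 0.16. Spry2 had 1159, 1570.3 and 2102 in newly transcribed RNA, against 319, 417 and 536 in total RNA, an enrichment of 1.87 ± 0.12. Spry1 had 214, 272 and 648 in newly transcribed RNA, against 101, 126 and 149 in total RNA, an enrichment of 1.44 ± 0.21 that was 0.89 when arrays 3, 6 and 9 were used alone. The fractions did not overlap for any of these genes.

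Spred1 had 371, 473 and 518 in newly transcribed RNA, against 211, 244 and 322 in total RNA, and Spred2 had 420.3, 511 and 863, against 279, 309 and 331. Both were above total RNA on every array, by 0.82 ± 0.10 and 0.90 ± 0.13, but under 2-fold. Errfi1 had 17787, 19417 and 20569 in newly transcribed RNA, against 3426, 4205 and 5968 in total RNA, an enrichment of 2.11 ± 0.11 (adjusted p = 1.5e-12). With the 3 sets averaged, so that n was 3 per fraction, the same 8 members passed. Their adjusted p then ran from 1.01e-04 (Dusp6) to 0.00905 (Spry1). Standard errors were larger, with 0.27 for Dusp1, 0.28 for Dusp5 and 0.22 for Dusp6.

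In the first 60 min experiment the enrichments were 2.31 ± 0.26 for Dusp1, 3.37 ± 0.39 for Dusp4, 3.31 ± 0.36 for Dusp5, 2.99 ± 0.27 for Dusp6, 2.30 ± 0.33 for Spry1, 1.40 ± 0.39 for Spry2, 1.93 ± 0.51 for Spry4, 1.48 ± 0.29 for Spred2 and 1.47 ± 0.24 for Errfi1, with adjusted p at most 0.015. Spred1 had 372, 927 and 866 in newly transcribed RNA, against 321, 745 and 548 in total RNA, and its change of 0.40 ± 0.41 did not pass (adjusted p = 0.45). Its lowest newly transcribed value and its highest total value came from the 2 arrays with the raised 3′ over 5′ differences, and without both it was 1.09 ± 0.26 (adjusted p = 0.0071), a call for all 10 members. The part of those differences in the values was not tested otherwise.

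In the 2F experiment the arrays of a group lay closer together. Dusp1 had 1879, 2144 and 2589 in newly transcribed RNA, against 607, 607 and 675 in total RNA. Dusp5 had 4765, 4972 and 6380.0, against 1309, 1169 and 1284. Errfi1 had 18041, 18444 and 22032, against 5594, 5272 and 5295. Enrichments were 1.80 ± 0.13 for Dusp1, 2.14 ± 0.14 for Dusp4, 2.09 ± 0.12 for Dusp5, 1.98 ± 0.10 for Dusp6, 1.92 ± 0.08 for Spry1, 1.23 ± 0.09 for Spry2, 2.37 ± 0.23 for Spry4, 1.04 ± 0.09 for Spred1, 1.28 ± 0.09 for Spred2 and 1.85 ± 0.10 for Errfi1 (adjusted p at most 1.1e-05). Spred1 fell under 2-fold without replicate 1 of newly transcribed RNA (0.97) and with arrays centred on their median (0.86). It did so too with 32 added to each intensity (0.95), and its second probe set was under 2-fold (0.97).

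The difference in enrichment between the 2 experiments of 60 min was tested as an interaction term, and limma called 0 members, against 0.0252% of probe sets, while 3 had an unadjusted p under 0.05. The largest differences were -1.23 ± 0.46 for Dusp4, -1.23 ± 0.46 for Dusp5 and -1.02 ± 0.31 for Dusp6 (2F minus the first experiment, adjusted p 0.31, 0.31 and 0.23). Dusp6 passed when replicate 1 of newly transcribed RNA was left out (-1.26 ± 0.20, adjusted p = 0.029), and Dusp5 when replicate 1 of total RNA was left out (-1.63 ± 0.33, adjusted p = 0.042). Between 60 min and 30 min limma called 0 members as well, against 18.8% of probe sets, with 3 at an unadjusted p under 0.05, and Errfi1 came nearest (-0.64 ± 0.24, adjusted p = 0.053). Without total replicate 1 at 60 min, Dusp4 (1.42) and Spry1 (1.19) passed, and without newly transcribed replicate 3 Spry4 did (-1.31).

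**Figure D2:**
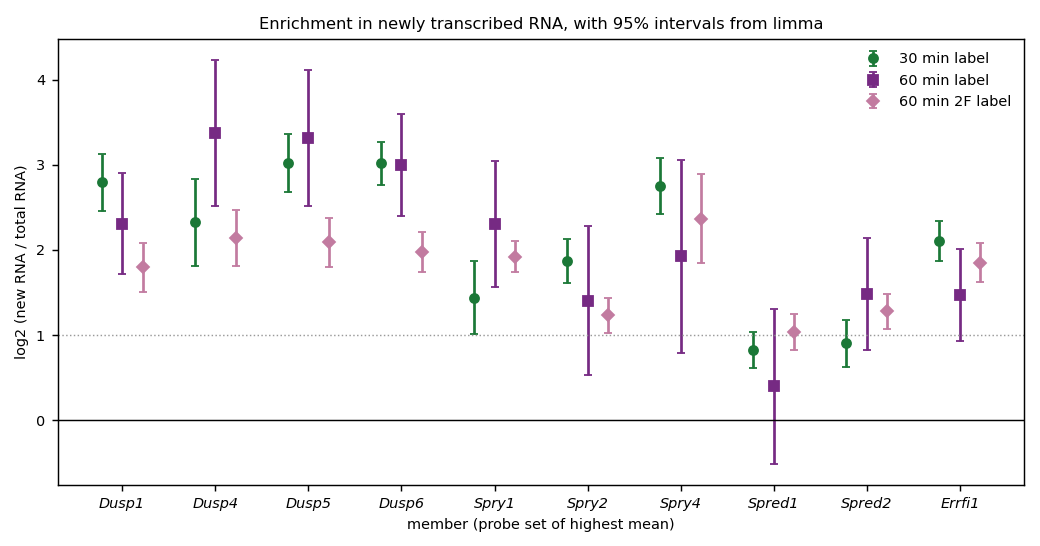
Log2 ratio of newly transcribed to total RNA for each member after 30 min (9 arrays per fraction), 60 min and 60 min 2F (3 each), with 95% intervals from limma. The dotted line marks 2-fold. Dusp5 and Dusp6 were enriched about 3 log2 units at 30 min, and Spred1 was the member whose interval at 60 min crossed 0.

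Among context genes, 12 of 14 ERK targets tested were enriched at 30 min, 12 of 15 at 60 min and 12 of 15 in 2F, with a median of 2.23 at 30 min. Junb, an AP-1 subunit, reached 2.96 ± 0.22 and Egr2 2.86 ± 0.24. Of the other inhibitors 7 of 14 were higher and 1 was lower at 30 min, with Socs3 at 2.76 ± 0.23 and Pebp1, a Raf inhibitor, at -1.67 ± 0.10. Of 24 cascade genes 1 was higher (Sos2, 1.85 ± 0.12) and 4 were lower, with the MEK gene Map2k2 at -2.18 ± 0.19. Of 11 other dual-specificity phosphatases 3 were higher, among them Dusp8 (1.58 ± 0.26) and Dusp16 (1.47 ± 0.11), and Dusp19 was lower (-2.89 ± 0.22). Of all probe sets, 23.7% were higher at 30 min, 17.7% at 60 min and 24% in 2F, so the count of these phosphatases was near the general share. No share of all probe sets is given for the counts called lower.

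The unlabelled RNA that remained after 60 min gives the opposite view. Of 10 members, 4 were lower in pre-existing than in total RNA, against 6.96% of probe sets. Errfi1 had 2128, 1823 and 2234 in pre-existing RNA, against 6285, 8576 and 6613 in total RNA (-1.79 ± 0.24, adjusted p = 8.9e-04). Spry2 had 213, 197 and 212, against 401, 932 and 769 (-1.67 ± 0.39, adjusted p = 0.025). Dusp6 had 414, 322 and 439, against 883, 844 and 849 (-1.14 ± 0.27, adjusted p = 0.026). Dusp1 had 255, 234 and 348, against 544, 632 and 541 (-1.05 ± 0.26, adjusted p = 0.035). In each of the 4 genes all pre-existing values were below all total values. Only Errfi1 remained called whichever of the 9 arrays was left out. The second probe set of Errfi1 was not called (-1.625 ± 1.04, adjusted p = 0.33). Without pre-existing replicate 1, 2 or 3, or total replicate 2 or 3, the count of called members was 1. With the replicate number as a block, Spred1 was called as well (-1.21 ± 0.30, adjusted p = 0.035). Spred1 also passed without total replicate 1 (-1.54 ± 0.41). That setting keeps total replicate 2, the array with the raised actin 3′ over 5′ difference and the highest total value of Spred1.

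The other members did not pass with all arrays. Without the 2 arrays with raised 3′ over 5′ differences, Dusp4 (-1.12 ± 0.28, adjusted p = 0.028), Dusp5 (-1.30 ± 0.27, adjusted p = 0.014) and Spry4 (-1.03 ± 0.25, adjusted p = 0.028) were called, and Dusp1 was not (-0.98 ± 0.21). Dusp5 had 437, 408 and 422 in pre-existing RNA, against 1450.3, 533 and 741 in total RNA (-0.98 ± 0.36). Dusp4 had 17.4, 30.3 and 22.1, against 61.4, 20.6 and 39.7. Its pre-existing values were all under the low level, and it passed the intensity filter through newly transcribed RNA. The size of its change therefore depends on the floor of the array, and its call is not read as a 2-fold loss. Spry4 had 31.8, 43.2 and 26.8, against 67.9, 86.8 and 67.8 (-1.15 ± 0.51), and it passed without newly transcribed replicate 1, which shares the fit (-1.15 ± 0.25). Dusp5 and Spry4 did not overlap between the fractions, and Dusp4 did. Spry1 had 78.1, 58.2 and 92.6, against 167, 75.8 and 93.4, and Spred2 had 210.4, 223 and 241, against 333, 245 and 204. Spred1 had 202, 245 and 216, against 321, 745 and 548, without overlap.

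The ratios of newly transcribed and pre-existing to total RNA can be turned into half-lives if a line across probe sets sets the scale at which both add up to total RNA. Here that line was nearly flat, with a slope of -0.033 over 9047 probe sets, and the median half-life of the 8 members bright enough was 398 min. The value rested on single arrays: it was 120 min without total replicate 2, 177 min without newly transcribed replicate 1, 889.4 min without newly transcribed replicate 3, 1462 min without total replicate 3 and 1877 min without newly transcribed replicate 2. Without total replicate 1, and over brighter probe sets, the slope was positive and gave no value. The median of 32.9 min from the first hour of actinomycin D (7 members, 34.4 min with intensities under 32 set to 32) was lower than any of these, and individual labelling half-lives are not given.

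Total RNA after fresh medium was set against cells before the drug to show how far each transcript rose. The 2 sides come from different experiments, and the untreated arrays are those used for actinomycin D. After 30 min, 2 of 9 members tested were higher, against 0.468% of probe sets. After 60 min 2 of 10 were, against 1.49%, and in the 2F experiment 4 of 10, against 3.2%.

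Errfi1 rose in all 3. It had 1114, 1314 and 1249.8 before, 3426, 4205 and 5968 (lowest, median and highest) at 30 min, 6285, 8576 and 6613 at 60 min and 5594, 5272 and 5295 at 60 min 2F. No labelled array came near the untreated ones, and the changes were 1.86 ± 0.18 (adjusted p = 1.0e-04), 2.54 ± 0.20 (adjusted p = 0.0024) and 2.14 ± 0.09 (adjusted p = 1.1e-05). Dusp5 had 234, 258 and 245 before, 589, 811 and 1091 at 30 min, 1450.3, 533 and 741 at 60 min and 1309, 1169 and 1284 at 60 min 2F. All labelled arrays were above the untreated ones. Dusp5 rose by 1.72 ± 0.18 at 30 min (adjusted p = 1.5e-04) and 2.35 ± 0.08 in 2F (adjusted p = 7.1e-06), and its change of 1.76 ± 0.36 at 60 min missed the threshold (adjusted p = 0.057). Without total replicate 1 or 2 at 60 min it passed, with 1.36 ± 0.21 and 2.08 ± 0.28. With the 30 min sets averaged, Dusp5 and Errfi1 had an adjusted p of 0.017 each.

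Dusp6 had 439, 462 and 645 before, 719.7, 995 and 1083 at 30 min, 883, 844 and 849 at 60 min and 1176, 1224 and 1204 in 2F. Each labelled group lay above the untreated arrays, and the change was called in 2F (1.24 ± 0.15, adjusted p = 0.0012). At 30 min it was 0.92 ± 0.14 (adjusted p = 0.0055, or 0.22 with the 30 min sets averaged), just under 2-fold, though 1.09 without untreated replicate 3, and at 60 min 0.76 ± 0.21 (adjusted p = 0.10). Spry4 had 32.9, 27.4 and 38.1 before, 23.9, 35.5 and 44.0 at 30 min, 67.9, 86.8 and 67.8 at 60 min and 80.9, 79.5 and 63.4 in 2F. It overlapped with untreated cells at 30 min (0.03 ± 0.20) and was above them on all arrays at 60 min, with 1.18 ± 0.21 (adjusted p = 0.043) and, in 2F, 1.19 ± 0.15 (adjusted p = 0.0015). The 60 min call was lost with the replicate number as a block (adjusted p = 0.075), without a filter on low values (0.0598), with median centring (0.0519), without any 1 of the untreated replicates (0.167 to 0.196) and without total replicate 3 (0.137). With 32 added to each intensity, Spry4 was under 2-fold at 60 min (0.71) and in 2F (0.72). Its second probe set changed by 0.37 at 60 min with intensities under 32 set to 32.

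Dusp1 was higher at 30 min than at either end of the course. It had 517, 620.0 and 637 before, 886, 1127 and 1491 at 30 min, 544, 632 and 541 at 60 min and 607, 607 and 675 in 2F. The 30 min arrays lay above all others, and the 60 min arrays of both experiments overlapped with untreated cells. Its change at 30 min was 0.97 ± 0.14 (adjusted p = 0.0027, or 0.11 with the 30 min sets averaged), just under 2-fold. It passed without untreated replicate 2 (1.01) or 3 (1.03), and was -0.05 ± 0.19 at 60 min and 0.09 ± 0.10 in 2F.

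These 30 min and 60 min groups were therefore compared directly, a comparison added after these values were seen. Of 9 members tested in the first experiment 2 were called, against 7.32% of probe sets: Dusp1 was lower at 60 min than at 30 min (-1.02 ± 0.15, adjusted p = 0.0022) and Spry4 was higher (1.15 ± 0.20, adjusted p = 0.0057). In 2F, 1 of 10 was called, against 1.41%: Spry4 was higher than at 30 min (1.16 ± 0.19, adjusted p = 0.0051), and Dusp1 was lower by less than 2-fold (-0.87 ± 0.13, adjusted p = 0.0026). With the 30 min sets averaged, Dusp1 and Spry4 had an adjusted p of 0.30 each in the first experiment. The call of Dusp1 was also lost on the fold threshold without total replicate 1 (-0.98) or 3 (-0.98) at 60 min, and that of Spry4 in 2F without total replicate 2 (adjusted p = 0.051). Without total replicate 1 at 60 min, Spry2 (1.03) and Spred1 (1.31) passed. Both had their highest 60 min total value on replicate 2, the array with the raised actin 3′ over 5′ difference.

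No change of the remaining members was called with all arrays. Without total replicate 1 at 60 min, Spry2 (1.74, adjusted p = 0.011) and Spred1 (1.05, adjusted p = 0.030) passed, and without untreated replicate 2 Dusp4 did in 2F (1.04). Spry2 had 232, 268 and 261 before, 319, 417 and 536 at 30 min, 401, 932 and 769 at 60 min and 408, 428 and 429 in 2F, above untreated cells throughout and not called (0.72 ± 0.15, 1.38 ± 0.32 and 0.74 ± 0.09). Spry1 had 118, 94.0 and 91.7 before, 101, 126 and 149 at 30 min, 167, 75.8 and 93.4 at 60 min and 122, 119 and 123 in 2F. Dusp4 had 20.2, 36.8 and 34.0 before, 15.5, 30.2 and 46.2 at 30 min, 61.4, 20.6 and 39.7 at 60 min and 61.5, 53.5 and 47.4 in 2F, where it was above untreated cells without passing the fold threshold (0.88 ± 0.23, adjusted p = 0.027). Spred1 had 211, 244 and 322 at 30 min, 321, 745 and 548 at 60 min and 256, 263 and 261 in 2F, and Spred2 had 279, 309 and 331, then 333, 245 and 204, then 348, 330.3 and 322.

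**Figure D3:**
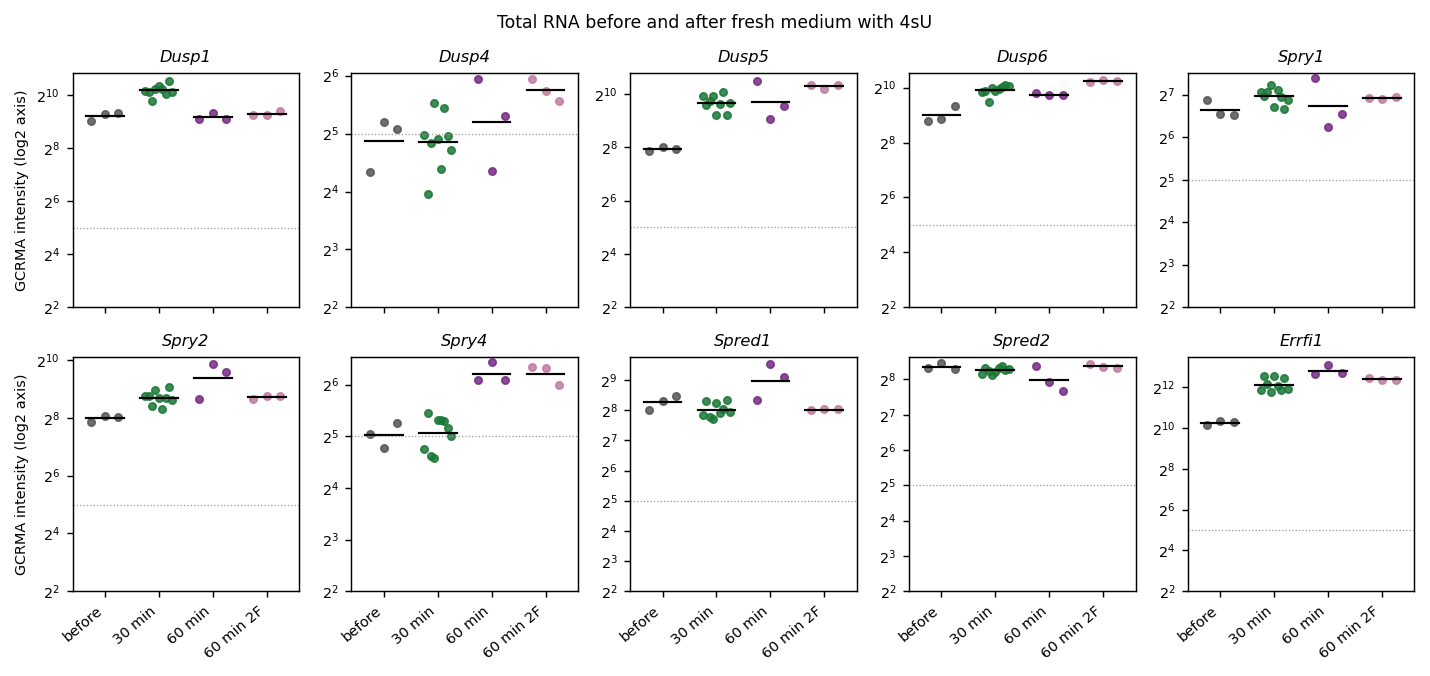
GCRMA intensity (log2 axis, its upper end set per panel) of each member in total RNA of untreated cells (3 arrays), after 30 min (9 arrays) and after 60 min in the first and the 2F experiment (3 arrays each). Points are arrays, bars are means of log2 values, and the dotted line is the low level of 32. Dusp5 and Errfi1 sat above untreated cells on every labelled array, and Dusp1 did so at 30 min, with 886 to 1491 against 517 to 637.

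A larger share of the ERK targets than of the members was called in the same arrays. Of 14 tested at 30 min 8 were higher, led by Fos (4.92 ± 0.15), Egr2 (4.16 ± 0.41) and Egr3 (2.85 ± 0.20). At 60 min 5 of 13 were higher, and in 2F 11 of 14. Fos was then lower at 60 min than at 30 min, with changes of -1.32 ± 0.16 in the first experiment and -1.42 ± 0.16 in 2F. Of the cascade genes limma called 0 at 30 min and 0 at 60 min, where 2 and 3 had an unadjusted p under 0.05, and 1 in 2F, the adaptor Shc1 (1.23 ± 0.17). Of 10 other dual-specificity phosphatases it called 0 in each of the 3 comparisons (2, 1 and 3 with an unadjusted p under 0.05). Of the other inhibitors it called 0 as well (2, 2 and 7).

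Newly transcribed RNA was compared between 3 labelling times. The times come from different experiments and, at 60 min, another 4sU concentration, so time cannot be told apart from these. From 15 min to 30 min 6 of 10 members were higher, against 17.8% of probe sets called in either direction. Dusp1 had 7171, 7249 and 5391 at 15 min, 4854, 7338 and 12926 at 30 min, 2225, 2911 and 3489 at 60 min and 1879, 2144 and 2589 in 2F. It was high from the first 15 min, its first 2 times overlapped (0.29 ± 0.26, adjusted p = 0.38), and all 60 min arrays were below all earlier ones. Relative to 30 min, Dusp1 changed by -1.504 ± 0.27 at 60 min (adjusted p = 0.0014) and by -1.88 ± 0.26 in 2F (adjusted p = 1.9e-04). The first of these was lost with the replicate number as a block (-1.35 ± 0.37, adjusted p = 0.098) and with the sets averaged (adjusted p = 0.057), and the second passed with the sets averaged (adjusted p = 0.0050).

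Dusp4 went the other way. It had 51.3, 79.3 and 41.9 at 15 min, 90.5, 129.9 and 280.0 at 30 min, 371, 369.5 and 406 at 60 min and 286, 213 and 219.5 in 2F. The 3 times of the main experiments did not overlap, and Dusp4 rose by 1.39 ± 0.35 at 30 min over 15 min (adjusted p = 0.0066) and by 1.40 ± 0.34 at 60 min over 30 min (adjusted p = 0.0079). The first step was lost without 15 min replicate 3 (adjusted p = 0.052). The latest step was lost under the replicate block (1.22 ± 0.31, adjusted p = 0.086) and with the sets averaged (adjusted p = 0.079), and in 2F it was 0.71 ± 0.34 (adjusted p = 0.12). Arrays 1, 4 and 7 at 30 min gave 0.63 at 60 min, while the other sets gave 1.79 and 1.77. These were the members called at 60 min against 30 min, 2 of 10 against 15.8% of probe sets, and in 2F Dusp1 alone was called, 1 of 10 against 11%.

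Dusp5 had 2932, 3674 and 2256 at 15 min, 4978, 6127 and 11849 at 30 min, 10671, 7247 and 7300.4 at 60 min and 4765, 4972 and 6380.0 in 2F. It rose by 1.19 ± 0.25 from 15 min to 30 min (adjusted p = 0.0021) and overlapped between 30 min and both later groups. With arrays 2, 5 and 8 alone at 30 min, this rise was 0.88. Dusp6 had 4240.3, 5319 and 3655 at 15 min, 5781, 8000.5 and 10203 at 30 min, 4895, 7908 and 8258 at 60 min and 4159, 4985 and 5086 in 2F. The 15 min arrays lay below the 30 min ones, with a change of 0.83 ± 0.20 that was under 2-fold. In 2F Dusp6 was below the 30 min arrays (-0.72 ± 0.19, adjusted p = 0.010).

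Spry1 had 163, 134 and 128 at 15 min, 214, 272 and 648 at 30 min, 531, 452 and 593 at 60 min and 465.9, 449 and 461 in 2F. Spry4 had 80.0, 81.0 and 52.6 at 15 min, 155, 216 and 314 at 30 min, 110.1, 365 and 545 at 60 min and 467, 469 and 255 in 2F. Both rose from 15 min to 30 min without overlap, by 1.26 ± 0.34 and 1.68 ± 0.22. The rise of Spry1 was lost without 15 min replicate 3 (adjusted p = 0.0502) and under 2-fold with arrays 2, 5 and 8 (0.94) or 3, 6 and 9 (0.77) alone. Neither gene was called later by its brightest probe set, but the second of Spry4 rose by 1.63 ± 0.37 at 60 min over 30 min (adjusted p = 0.0053) and 1.25 ± 0.35 in 2F (adjusted p = 0.015). The brightest of Spry4 passed in 2F without newly transcribed replicate 3 (1.07). For Spry1, arrays 1, 4 and 7 at 30 min averaged 9.22 (log2) and the other sets 8.08 and 7.91. Spry2 had 791, 723 and 832 at 15 min, 1159, 1570.3 and 2102 at 30 min, 2609, 1898 and 1077 at 60 min and 919.97, 1071 and 982 in 2F, with a change of 0.96 ± 0.17 from 15 min to 30 min that fell just short of 2-fold and reached it without 15 min replicate 3 (1.01).

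Spred1 had 188, 260.3 and 149 at 15 min, 371, 473 and 518 at 30 min, 372, 927 and 866 at 60 min and 591, 509 and 507 in 2F. It rose by 1.23 ± 0.16 from 15 min to 30 min (adjusted p = 1.3e-04) without overlap. Spred2 had 312, 385 and 237 at 15 min, 420.3, 511 and 863 at 30 min, 513, 733 and 954 at 60 min and 770.4, 870.5 and 792 in 2F. No change of its brightest probe set was called with all arrays. At 30 min over 15 min it passed without 15 min replicate 2 (1.07) and with arrays 1, 4 and 7 alone at 30 min (1.38). The second probe set of Spred2 was called there with all arrays (1.04 ± 0.38, adjusted p = 0.037). Errfi1 had 9461, 11853 and 7881 at 15 min, 17787, 19417 and 20569 at 30 min, 16657, 22099 and 20709 at 60 min and 18041, 18444 and 22032 in 2F. Its rise of 1.00 ± 0.12 to 30 min sat at the 2-fold threshold, and it was lost without replicate 1 (0.99) or 3 (0.86) at 15 min.

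**Figure D4:**
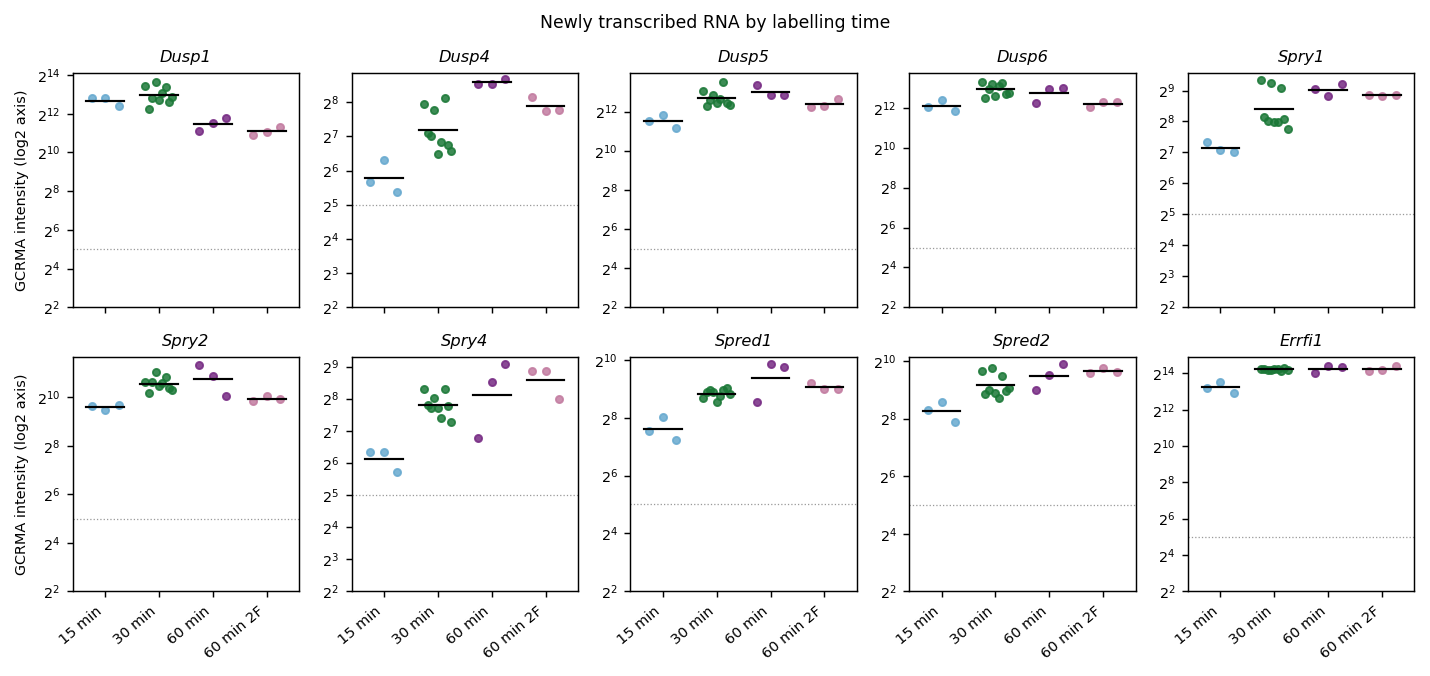
GCRMA intensity (log2 axis, its upper end set per panel) of each member in newly transcribed RNA after 15 min (3 arrays), 30 min (9 arrays) and 60 min in the first and the 2F experiment (3 arrays each). Points are arrays, bars are means of log2 values, and the dotted line is the low level of 32. Dusp1 was at 4854 or more on every array to 30 min and at 3489 or less afterwards, whereas Dusp4 was at 79.3 or less at 15 min and at 213 or more in both 60 min groups.

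The other phosphatases outside the 10 members held genes with a later course like that of Dusp4 in the first 60 min experiment. In newly transcribed RNA 4 of 10 were higher at 30 min than at 15 min, against 17.8% of probe sets called in either direction. At 60 min 5 of 10 were higher than at 30 min, against 15.8%. Dusp16 rose by 1.197 ± 0.16 and then by 1.74 ± 0.19, and Dusp10, another phosphatase of JNK and p38, rose by 1.27 ± 0.23 and then by 1.52 ± 0.24. In 2F 2 of 10 were higher than at 30 min, against 11%, namely Dusp7 (1.07 ± 0.30) and Dusp16 (1.055 ± 0.13). Dusp10 was not called there. Of 14 ERK targets tested, 2 were lower at 60 min than at 30 min, as Dusp1 was, and 1 was higher. The early targets Fos and Ier2 fell by 1.35 ± 0.25 and 1.01 ± 0.21, whereas Fosl1 rose by 1.06 ± 0.31 (adjusted p = 0.020). The median of the list was -0.10, beside -0.06 for all probe sets. In 2F Fos and Ier2 were again lower, and Fosl1 was again higher (1.10 ± 0.29, adjusted p = 0.012).

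Across the 11 groups, group means spanned 7.34 log2 units for Errfi1, 2.83 for Spred2 and 1.93 for Spred1, which stayed above the low level. The other members had a group under it, and with intensities under 32 set to 32 they spanned at least 8.01 for Dusp5, 7.97 for Dusp1, 7.92 for Dusp6, 5.77 for Spry2, 4.03 for Spry1, 3.58 for Spry4 and 3.58 for Dusp4. By mean, Dusp1 was highest in newly transcribed RNA at 30 min and then 15 min, which overlapped, then at 60 min and 60 min 2F, which overlapped too. Below these came total RNA at 30 min, then the 2F, untreated and 60 min total RNA, none of which was separated from its neighbour, then pre-existing RNA and the 2 drug groups, each apart. Dusp6 had the same group on top, and its first 4 groups, all newly transcribed RNA, overlapped from one to the next. For Dusp4, Dusp5, Spry1, Spry2, Spred1 and Errfi1 newly transcribed RNA at 60 min was highest, and for Spry4 and Spred2 that of 2F. Apart from Dusp4 the top group overlapped with the next in every member. The 4 newly transcribed groups were the 4 highest in Dusp1, Dusp4, Dusp5, Dusp6, Spry1, Spry2 and Errfi1. In Spry4, total RNA of both 60 min experiments lay above newly transcribed RNA at 15 min. In Spred1, newly transcribed RNA at 15 min was next to lowest. The lowest group was total RNA after 2 h of actinomycin D in 9 members and after 1 h in Spry4, where the 2 drug groups overlapped. In Dusp1, Dusp4, Dusp5, Spry1 and Spry4 both drug groups averaged under the low level.

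The patterns over the 11 group means were compared as a description without a test, since all groups share the contrast of fractions and the same arrays. Among Dusp1, Dusp5, Dusp6, Spry1, Spry2 and Errfi1, Pearson's r ran from 0.912 (Dusp1 with Spry1) to 0.989 (Dusp5 with Dusp6). Dusp4 had 0.750 with Dusp1, 0.864 with Dusp5 and 0.945 with Spred2. The lowest value was that of Dusp1 with Spred1 (0.513). Among 2334 genes whose mean log2 was at least 7 and whose range was at least 2, those most like each member were Ier5 (0.996) and Rhob (0.993) for Dusp5, Ier5 and Socs3 (0.995 each) for Dusp6, and Rpl12 (0.987) and Socs3 (0.977) for Dusp1. For Errfi1 they were Mcl1 (0.991) and Ccn2 (0.987), for Spry2 Ptger4 (0.991) and Sgk1 (0.986), for Spry1 Plekhf1 (0.992) and Rgs3 (0.991), and for Spry4 Gadd45b and Sox9 (0.976 each). Dusp4 was most like Brd8 and Cyth3 (0.982 each), Spred2 like Maml1 (0.990) and Repin1 (0.988), and Spred1 like Tmcc3 (0.948) and Chchd4 (0.941).

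The further probe sets of 5 members did not all follow the brightest ones. The second of Errfi1 changed by -0.86 ± 0.13 at 1 h of actinomycin D, under 2-fold, fell by 3.07 ± 0.13 at 2 h, and was enriched by 2.68 ± 0.16 at 30 min. At 60 min it had 877, 11824 and 11115 in newly transcribed RNA, against 2162, 395 and 1848 in total RNA. The lowest value of each fraction came from the array with the raised 3′ over 5′ difference, and the enrichment of 2.06 ± 1.04 did not pass, nor did its rise in total RNA at 60 min (1.15 ± 0.61, adjusted p = 0.28). The second of Spry4 was enriched at 30 min by at least 2.69-fold, since its mean in total RNA was under the low level, and by 2.98 ± 0.41 at 60 min and 2.59 ± 0.12 in 2F, and the third was dim with a mean log2 of 2.54. The second of Spry2 had a mean log2 of 2.71 and was not tested. The second of Spred2 was enriched by 1.82 ± 0.23 at 30 min, beside 0.90 ± 0.13 for the brightest. The next brightest was under the low level on all 9 arrays of total RNA, which leaves an enrichment of at least 3.12-fold. In Spred1 the others tested at 30 min ranged from 0.17 to 0.99, and at 1 h of actinomycin D one of them fell by 1.17 ± 0.24 while the remaining changes were -0.18 and -0.31. In newly transcribed RNA at 30 min over 15 min, some probe sets went opposite to the brightest ones. The dimmest of Spred1 (-2.17 ± 0.53) and the 2 dimmest of Spred2 (-1.15 ± 0.25 and -1.84 ± 0.31) were lower. Their mean log2 values over all arrays were 3.93, 5.17 and 4.60. At 15 min, however, each was above the low level on every array, with 134 to 235, 164 to 286 and 122 to 232. With intensities under the low level set to it, their changes were -1.86, -1.15 and -1.79. Dusp1, Dusp4, Dusp5, Dusp6 and Spry1 had a single probe set each.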

How the data were processed

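Total, newly transcribed and pre-existing RNA of NIH-3T3 cells was hybridised to 45 Affymetrix arrays in 11 groups, which were taken from the sample titles and descriptions. The deposited values are linear intensities that the authors made with GCRMA, per the submitters' processing notes, which combines the probes of a probe set and normalises between arrays. Its version is not given in the sources used here. Of 31451 probe sets, 61 controls were left out of tests, 25031 had 1 gene symbol in the platform annotation, 690 had several and 5669 had none. Log2 of the intensities entered linear models with group as the only factor (lmFit, then eBayes, of limma 3.58.1, run in R 4.3.3). Each model held the arrays of the comparison's experiment and the probe sets whose mean log2 over them was at least 5. The filter can hide members that are low in every group. Enrichments, actinomycin D and time comparisons made 15 comparisons, and 2 between total RNA groups were added after values were seen. The members, gene lists and tests were chosen with earlier results of these data known. Every member is named in every comparison, and up to 3 genes of each context list, those with the largest called change. Lists are described by counts and medians, without a test. Promoter motifs were searched as letters on both strands. Half-lives from actinomycin D are 60 min divided by the log2 loss. Those from labelling used the line of pre-existing over total on newly transcribed over total RNA, over probe sets whose mean log2 was at least 7. The fits were tested on simulated data.

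The labels give groups the same replicate numbers and do not say what a shared number means. Arrays that shared a number were checked by correlating how far each lay from its group mean. In 6 comparisons all 3 pairs exceeded 0.1, and the number was taken there to pair arrays. The fits given in the results do not use this pairing, and the replicate block was run only as an alternative. Correlations were 0.143 to 0.183 for 1 h and 0.259 to 0.576 for 2 h of the drug against untreated cells. At 60 min they were 0.149 to 0.299 for newly transcribed and 0.219 to 0.391 for pre-existing against total RNA, 0.122 to 0.330 for total RNA against untreated cells, and 0.195 to 0.303 for newly transcribed RNA against that at 30 min. The alternatives were other filters, quantile and median scaling, a pseudocount of 32, 1 fit over all 45 arrays, the replicate block, the second probe set of a member, single arrays left out and, added after the data were seen, the sets of the 30 min arrays and intensities under 32 set to 32.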

Additional observations from a re-analysis of the deposited data

Results flagged for a closer look

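Dusp6 in total RNA at 30 min, replicate 3, had an intensity of 719.7, apart from the other 8 arrays of its group, whose highest value was 1083. It was the only one of 20 sets of 9 arrays checked (10 members in newly transcribed and total RNA at 30 min) in which the gap of the most extreme array to its neighbour passed Dixon's 95% value. Chance flags about 1 in 20 such sets.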

How the results depend on the processing

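No called change of a member turned its direction under any alternative run. Of 2679 comparisons of a member's change with its value under an alternative, 2457 kept direction and side of the threshold, 88 lost the call, 59 gained one and 75 uncalled changes moved or turned sign. At a filter of mean log2 7 the members called were 2 at 1 h of actinomycin D, 2 at 2 h, 1 between these times, 1 for total RNA at 60 min over untreated cells, 1 for total RNA at 60 min over 30 min and 0 for 2F over 30 min, because fewer members were tested. Without a filter, 60 min over untreated cells gave 1. A pseudocount of 32, which shrinks changes of low values, gave 3 between the drug times, 1 for the difference of enrichment between 60 min and 30 min, 0 for total RNA at 60 min over 30 min, 0 for 2F over 30 min, and a median first-hour half-life of 42.8 min. Setting intensities under 32 to 32 gave 3 between the drug times and 1 for the difference of enrichment between 60 min and 30 min. With the second probe set the counts were 4 at 1 h of the drug, 2 for pre-existing RNA, 0 for 60 min over untreated cells, 2 for newly transcribed RNA in 2F over 30 min, 1 for total RNA at 60 min over 30 min and 0 for 2F. A single fit over 45 arrays gave 4 for 60 min over untreated cells. The replicate block gave 1 for 60 min over untreated cells, 0 for newly transcribed RNA at 60 min over 30 min, 1 for the difference of enrichment between 60 min and 30 min, and 0 for each comparison of 60 min with 30 min total RNA. Where the numbers pair the arrays it changed no other call than those given with the results. Averaging the 30 min sets gave 0 for newly transcribed and 0 for total RNA at 60 min over 30 min. Single sets gave 3 for newly transcribed RNA at 30 min over 15 min (arrays 2, 5 and 8), 1 for 60 min over 30 min (1, 4 and 7), 2, 2 and 3 for 2F over 30 min, 1 for the difference of enrichment (3, 6 and 9), 1, 1 and 1 for total RNA at 60 min over 30 min, and 2 and 2 for 2F (the last 2 sets). Without both arrays with raised 3′ over 5′ differences, the difference of enrichment between the 60 min experiments gave 1. The Theil-Sen line gave a labelling half-life of 113 min.

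With single arrays left out, the members called ranged from 6 to 7 at 1 h of actinomycin D, 7 to 7 at 2 h, 5 to 6 between these times, 9 to 9 for newly transcribed RNA at 60 min, 9 to 10 in 2F and 1 to 6 for pre-existing RNA. For total RNA over untreated cells they ranged from 2 to 4 at 30 min, 1 to 5 at 60 min and 4 to 5 in 2F, and over 30 min from 1 to 3 at 60 min and 0 to 1 in 2F. For newly transcribed RNA they ranged from 4 to 7 at 30 min over 15 min, 2 to 2 at 60 min and 1 to 2 in 2F over 30 min. The differences of enrichment ranged from 0 to 1 between the 60 min experiments and from 0 to 2 between 60 min and 30 min. Half-lives ranged from 28.4 to 33.2 min (drug) and 120 to 1877 min (labelling). Except where stated, the cause was not tested. Dim members (Dusp4, Spry4) limit what the arrays show.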
